A study of Mus musculus with 6 samples.

Results

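The 10 genes described here encode surface ligands with which tumor cells restrain T cells, NK cells and macrophages, and proteins of the extracellular adenosine pathway. They were taken by gene symbol: Cd274, Pdcd1lg2, Cd80, Cd276, Cd47, Pvr, Lgals9, Nt5e, Entpd1 and Adora2b. All 10 were among the 22880 genes of the deposited table, and 8 were among the 12014 genes that passed the filter on low counts, because Pdcd1lg2 and Cd80 had too few reads. RNA was sequenced from MC-38 cells, a mouse colon adenocarcinoma line carrying green fluorescent protein (GFP), that had been grown as orthotopic tumors in the cecum wall of C57BL/6J mice and sorted as living cells positive for GFP and negative for CD45 and CD31. The cells of both groups carried the pLKO.1-puro vector. The 3 Mock libraries came from the control knock-down and the 3 HIF-1α-KD libraries from cells with a knock-down of HIF-1α, the oxygen-sensitive subunit of the hypoxia-inducible factor. The host tissue kept its own HIF-1α, the age of the mice was not given in the sources used here, and these sources do not say whether each library came from a separate tumor, so the p-values measure the spread between these libraries.

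Checkpoint ligands are read by receptors on immune cells. PD-L1 (Cd274) and PD-L2 (Pdcd1lg2) engage PD-1 on T cells, CD80 binds CD28 and CTLA-4, and CD276 (B7-H3) is a B7 protein whose receptor is not settled. CD47 binds SIRPα on macrophages and restrains phagocytosis, PVR (CD155) binds TIGIT, CD96 and the activating receptor CD226, and galectin-9 (Lgals9) binds glycans of receptors such as TIM-3. In the adenosine pathway, CD39 (Entpd1) degrades extracellular ATP and ADP to AMP, CD73 (Nt5e) cleaves AMP to adenosine, and the A2B receptor (Adora2b) is the adenosine receptor of low affinity. Several of these genes are known from other cells as hypoxia-responsive, and MC-38 tumors are widely used to study checkpoint blockade.

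The libraries held from 19845805 to 30809341 reads on genes. Hif1a, the targeted gene, reached 6914, 5424 and 4945 normalized counts with the control knock-down and 697.3, 3142 and 1928 with the HIF-1α knock-down, without overlap (log2 difference -1.82, standard error 0.46, limma adjusted p = 0.219). The knock-down was deepest in HIF-1α-KD replicate 1, without which the log2 difference was -1.21, and without HIF-1α-KD replicate 2 it was -2.30 (limma adjusted p = 0.0908 and 0.0992). Of 12 epithelial markers only 3 passed the filter on low counts. The summed level of the 12 was at most 3.66 FPKM (reads scaled to transcript length and to the depth of the library) in 5 libraries and 16.9 FPKM in Mock replicate 3, with Epcam at 0.72 FPKM there and at most 0.14 FPKM elsewhere. Epithelial markers were thus nearly absent from cells labelled as adenocarcinoma. Although the sort was against CD45, all 28 leukocyte markers had reads in at least 1 library. Their sum was between 229 and 361 FPKM in Mock libraries and was 172, 628 and 895 FPKM in HIF-1α-KD replicates 1, 2 and 3. Without the class II genes Cd74, H2-Aa and H2-Ab1 it was between 206 and 227 FPKM in Mock libraries. In HIF-1α-KD replicates 1, 2 and 3 it was then 120, 148 and 655 FPKM. Endothelial markers summed to between 8.99 and 11.6 FPKM in every library.

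Per transcript length, the genes fell into 3 tiers. Cd47, Lgals9 and Pvr were abundant, with Mock means of 69.3 ± 7.27, 60.9 ± 2.42 and 55.2 ± 12.9 FPKM (SD, n = 3), above 85.6%, 83.5% and 81.6% of the genes tested. Nt5e, Cd276, Cd274 and Entpd1 lay roughly an order of magnitude lower, at 6.07 ± 1.08, 5.54 ± 0.47, 4.07 ± 0.66 and 2.19 ± 0.38 FPKM (SD, n = 3). Adora2b (0.33 ± 0.080 FPKM), Cd80 (0.10 ± 0.087 FPKM) and Pdcd1lg2 (0.0081 ± 0.014 FPKM) were close to the limit of detection (SD, n = 3). In Mock cells the levels of the neighbours Lgals9 and Pvr, Nt5e and Cd276, and Cd80 and Pdcd1lg2 overlapped, and the other neighbours in this order did not. The order of the means was the same in HIF-1α-KD cells except that Cd276 (9.66 ± 1.53 FPKM) stood above Nt5e (7.95 ± 5.41 FPKM; SD, n = 3).

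**Figure D1:**
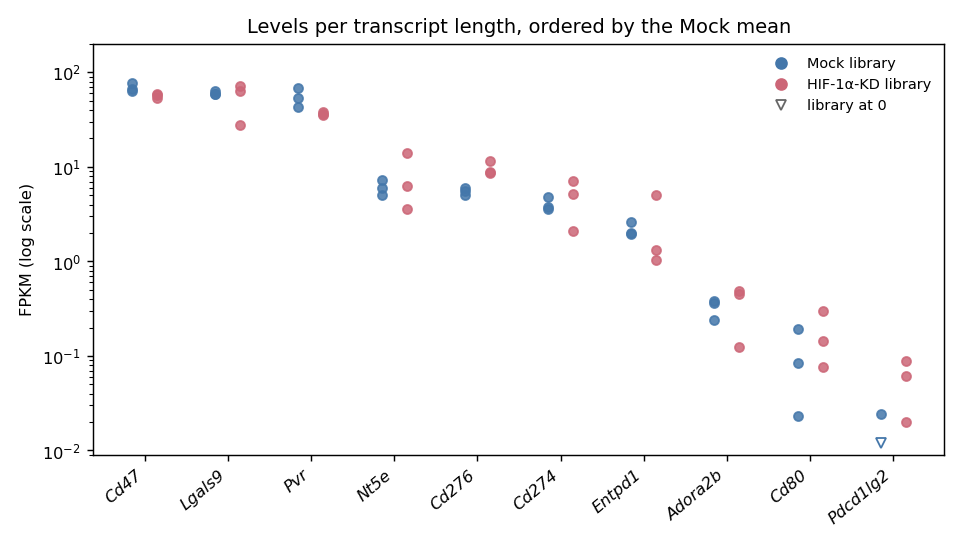
Level of each gene in FPKM on a log scale, for 3 Mock (blue) and 3 HIF-1α-KD (red) libraries, ordered by the Mock mean; each point is a library and open triangles mark libraries at 0. Cd47, Lgals9 and Pvr lie between 27.6 and 77.63 FPKM in all libraries, and Pdcd1lg2 stays below 0.1 FPKM.

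To ask whether the loss of HIF-1α changed these genes, normalized counts were put on a log2 scale after adding 1, and limma was fitted to all genes tested. None (0 of 8) of the tested genes had a limma adjusted p-value under 0.05, where 0.391% of all genes tested did, 0.00832% higher and 0.383% lower. At an unadjusted p-value under 0.05, Cd276 was higher and Pvr and Cd47 were lower in HIF-1α-KD cells, and the same 3 genes were those whose libraries did not overlap between the groups. Over all genes tested, 12.7% had an unadjusted p-value under 0.05 (7.04% higher and 5.69% lower) and 19.2% had groups without overlap (10.4% higher and 8.75% lower). For a single gene, the exact permutation of 3 against 3 libraries has a smallest p-value of 0.1. The median log2 fold change of the 8 genes was -0.18, against 0.02 for all genes tested. The quasi-likelihood test of edgeR also called 0 of 8 genes at an adjusted p-value under 0.05 and the same numbers at an unadjusted p-value under 0.05, 1 higher and 2 lower, whereas the Wald test of DESeq2 called 1, Cd276 (adjusted p = 0.0226). Over all genes, DESeq2 called 2.36% (0.799% higher and 1.56% lower) and edgeR 0.391%.

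**Figure D2:**
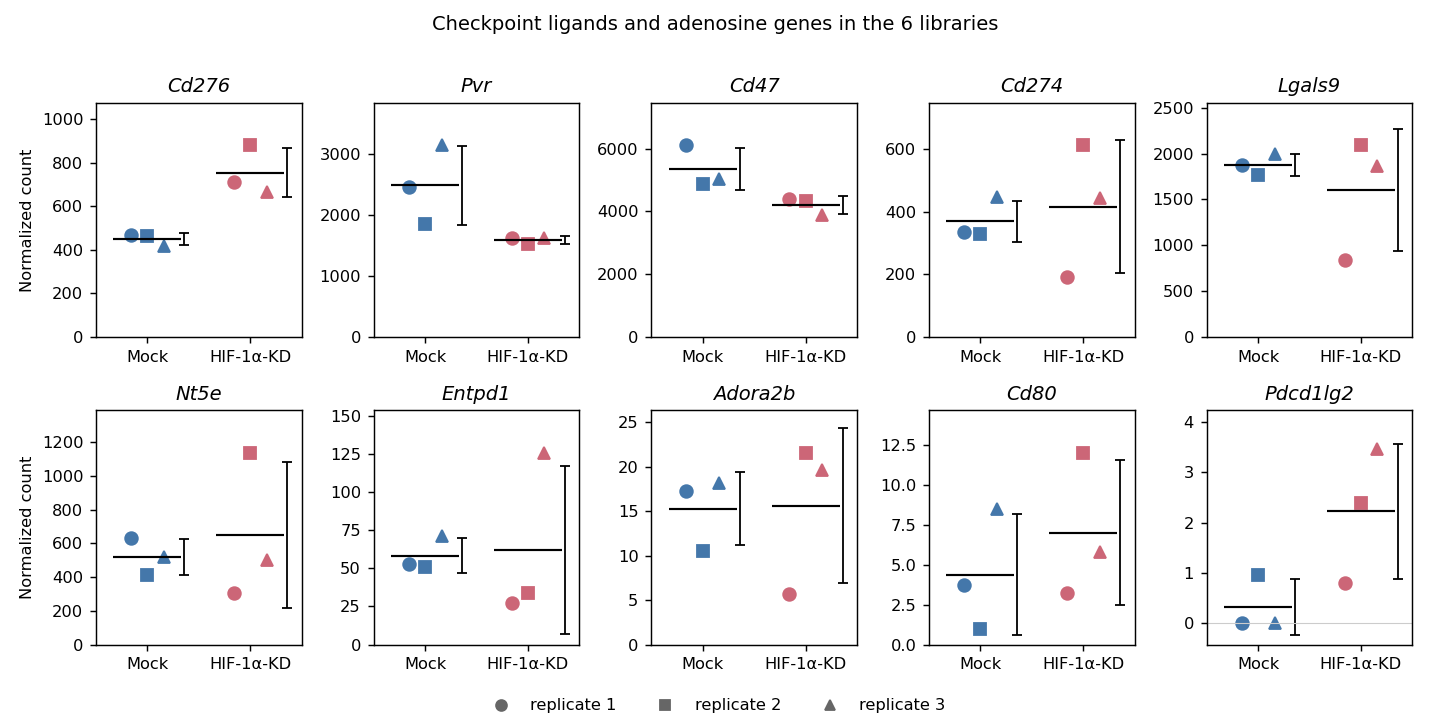
Normalized counts of the 10 genes in each library, with 1 symbol per replicate number, the group mean (line) and the SD over 3 libraries (bar); each panel has its own linear scale. Only Cd276, Pvr and Cd47 have groups without overlap among the 8 tested genes, while in the HIF-1α-KD group the points of Cd274, Nt5e, Entpd1, Lgals9 and Adora2b spread widely.

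Cd276 was the gene with the clearest difference. It was present at 466.6, 464.1 and 416.7 normalized counts across Mock replicates and at 713.4, 881.3 and 666.5 across HIF-1α-KD replicates. Every HIF-1α-KD library lay above every Mock library, and the Mock libraries were nearly level. The mean was 449 ± 28.1 in Mock and 754 ± 113 in HIF-1α-KD cells (SD, n = 3), a fold change of 1.67 that corresponds to 0.74 on the log2 scale (95% interval 0.34 to 1.13, standard error 0.17, limma adjusted p = 0.196). Omission of any 1 library gave log2 fold changes from 0.62 to 0.82 (limma adjusted p from 0.182 to 0.482). The gene (ENSMUSG00000035914) lies on the minus strand of chromosome 9, from 58524298 to 58555437 in the mouse assembly GRCm38. Fibroblasts and pericytes also express Cd276. Of 12 of their markers, 0 were at 0 in every library and 11 were tested. At an unadjusted p-value under 0.05, 0 were lower and 5 were higher (45.5%, against 12.7% of all genes tested). Among the 5 were Col3a1 (log2 fold change 1.09, limma adjusted p = 0.206) and Col1a1 (log2 fold change 1.99, limma adjusted p = 0.287). The other 3 were the pericyte markers Cspg4, Rgs5 and Pdgfrb, with log2 fold changes of 1.42, 1.15 and 0.59 (limma adjusted p = 0.296, 0.315 and 0.387). The groups did not overlap for Col3a1, Col1a1, Cspg4 and Rgs5 (36.4%, against 19.2% of all genes tested). Of the remaining tested markers, Col1a2, Acta2, Fap and Pdgfra had log2 fold changes of 0.17, 0.33, 0.06 and 0.03. Those of Lum and Dcn were -0.16 and -0.38 (limma adjusted p of all the remaining markers from 0.646 to 0.984). The summed level of the list was between 2293 and 5694 FPKM in Mock and between 7201 and 9717 FPKM in HIF-1α-KD libraries, but without its 3 collagens it was between 546 and 975 FPKM in Mock and between 425 and 714 FPKM in HIF-1α-KD libraries. Most of this remainder was Dcn, which alone made up 466 to 906 FPKM in Mock and 345 to 620 FPKM in HIF-1α-KD libraries. The sort was for GFP-positive cells, and RNA of leukocyte markers was nevertheless found in the sorted libraries. The part of such cells in the level of Cd276 was not tested, and in sorted bulk cells a change in the number of cells of a type cannot be told apart from a change of RNA per cell.

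Pvr and Cd47 had lower counts in every HIF-1α-KD library than in any Mock library, but neither passed an adjusted p-value under 0.05 in limma, edgeR or DESeq2. Pvr stood at 2461, 1857 and 3149 normalized counts in Mock cells, with 1627, 1518 and 1632 in HIF-1α-KD cells. The HIF-1α-KD libraries were tightly grouped below a Mock group that varied more. The mean was 2489 ± 646 in Mock and 1592 ± 64.4 in HIF-1α-KD cells (SD, n = 3), and the log2 difference of -0.61 had a 95% interval of -1.06 to -0.17 (standard error 0.20, limma adjusted p = 0.294). Its highest value was that of Mock replicate 3, and without that library the log2 fold change was -0.43 (limma adjusted p = 0.414, unadjusted p = 0.0433). Mock replicate 3 was also the library with the most epithelial marker RNA, and a link of that RNA to the level of Pvr was not tested. Pvr (ENSMUSG00000040511) lies on the minus strand of chromosome 7, from 19903578 to 19921160 (GRCm38).

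Cd47 gave 6113, 4887 and 5025 normalized counts in the Mock libraries, compared with 4410, 4347 and 3880 after knock-down of HIF-1α. The groups did not overlap, but the gap between the lowest Mock and the highest HIF-1α-KD library was small. The mean was 5342 ± 672 in Mock and 4212 ± 290 in HIF-1α-KD cells (SD, n = 3), and the log2 difference of -0.34 had a 95% interval of -0.66 to -0.01 (standard error 0.14, limma adjusted p = 0.384). The unadjusted p-value of 0.0433 rose above 0.05 when any library other than Mock replicate 2 was left out, to between 0.0516 without Mock replicate 3 and 0.141 without HIF-1α-KD replicate 3, while the log2 fold change stayed between -0.40 and -0.24. Cd47 (ENSMUSG00000055447) lies on the plus strand of chromosome 16, from 49800533 to 49915010 (GRCm38).

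**Figure D3:**
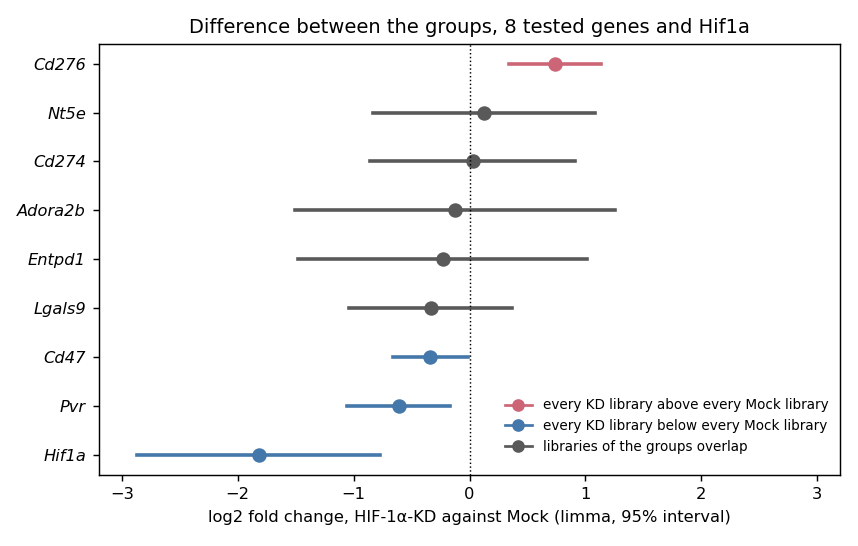
Log2 fold change of HIF-1α-KD against Mock cells (points) with the 95% interval of limma (bars) for the 8 tested genes and Hif1a. The intervals of Cd276 (0.34 to 1.13), Pvr (-1.06 to -0.17) and Cd47 (-0.66 to -0.01) exclude 0, and those of the 5 genes in grey include it.

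The PD-1 ligands are neighbours on chromosome 19 of GRCm38. Cd274 (ENSMUSG00000016496, 29367455 to 29388095) and Pdcd1lg2 (ENSMUSG00000016498, 29410919 to 29471161) are both on the plus strand, with 22.8 kb and 0 annotated genes between them. Their levels were far apart. Pdcd1lg2 had 0, 1 and 0 reads in Mock and 1, 2 and 3 reads in HIF-1α-KD libraries, all at or under the 3 reads that a count of 0 allows by counting error, so no fold change is given. Cd274 reached 333.6, 329.2 and 445.7 normalized counts with the control knock-down and 190.6, 612.7 and 442.4 with the HIF-1α knock-down. The HIF-1α-KD group held both the lowest library (replicate 1) and the highest (replicate 2), and the Mock mean of 370 ± 66.0 and the HIF-1α-KD mean of 415 ± 212 (SD, n = 3) differed by less than either SD. Their log2 difference of 0.03 (standard error 0.39, limma adjusted p = 0.984) has a 95% interval of -0.86 to 0.91 that leaves room for a change in either direction. It was 0.51 without HIF-1α-KD replicate 1 and -0.33 without HIF-1α-KD replicate 2 (limma adjusted p = 0.453 and 0.824). Cd80 (ENSMUSG00000075122, chromosome 16, 38455561 to 38496335), the B7 ligand typical of antigen-presenting cells, had 3, 1 and 7 reads in Mock and 4, 10 and 5 reads in HIF-1α-KD libraries. The groups overlapped at these few reads and the gene was not tested, so a difference in Cd80 was not detectable at this depth.

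The value of galectin-9 depended on a single library. Lgals9 (ENSMUSG00000001123, chromosome 11, 78962974 to 78984946) was present at 1871, 1762 and 2000 normalized counts across Mock replicates and at 841.3, 2092 and 1866 across HIF-1α-KD replicates. HIF-1α-KD replicate 1 lay at less than 0.5 of every other library, which kept within a narrow range. Its log2 fold change of -0.33 had a 95% interval of -1.04 to 0.37 (standard error 0.31, limma adjusted p = 0.688), and it was 0.08 without HIF-1α-KD replicate 1 (limma adjusted p = 0.89).

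The ectoenzymes and the receptor of the adenosine pathway did not differ between the groups beyond the spread of the HIF-1α-KD libraries. Nt5e (ENSMUSG00000032420, chromosome 9, 88327197 to 88372092) stood at 630.3, 414.4 and 517 normalized counts in Mock cells, with 306.4, 1138 and 502.5 in HIF-1α-KD cells. As with Cd274, HIF-1α-KD replicate 1 was the lowest library of all and HIF-1α-KD replicate 2 the highest, 3.71-fold apart. Its log2 fold change of 0.13 had a 95% interval of -0.83 to 1.08 (standard error 0.42, limma adjusted p = 0.927). It was 0.56 without HIF-1α-KD replicate 1 and -0.39 without HIF-1α-KD replicate 2 (limma adjusted p = 0.557 and 0.727).

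Entpd1 (ENSMUSG00000048120, chromosome 19, 40612366 to 40741602) gave 52.94, 50.72 and 71.27 normalized counts in the Mock libraries, compared with 27.35, 33.57 and 125.9 after knock-down of HIF-1α. HIF-1α-KD replicates 1 and 2 lay below all Mock libraries, and HIF-1α-KD replicate 3 above them. The log2 fold change, with a 95% interval of -1.48 to 1.02, was -0.23 (standard error 0.55; limma adjusted p = 0.891) and -0.91 without HIF-1α-KD replicate 3 (limma adjusted p = 0.418, unadjusted p = 0.0399). CD39 is abundant on macrophages, and the macrophage complement genes C1qa, C1qb and C1qc, picked from the leukocyte list after their values were seen, summed to between 63.4 and 76.9 FPKM in Mock libraries and to 31.5, 38.1 and 189 FPKM in HIF-1α-KD replicates 1, 2 and 3. Ptprc, which encodes CD45, was also highest in HIF-1α-KD replicate 3, at 1.27 to 1.59 FPKM in Mock libraries and at 0.56, 0.85 and 3.23 FPKM in the HIF-1α-KD libraries. HIF-1α-KD replicate 3 was the highest of the 6 libraries for Entpd1 and for 16 of the 20 tested leukocyte markers, against 18.4% of all genes tested. Entpd1 was lowest in HIF-1α-KD replicate 1 and next in replicate 2, an order that 11 of the 20 markers and 21.8% of all genes tested shared, and the part of residual leukocytes in its level was not tested.

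Adora2b (ENSMUSG00000018500, chromosome 11, 62248984 to 62266453) had 14, 11 and 15 reads in Mock and 7, 18 and 17 reads in HIF-1α-KD libraries. Its normalized counts ranged from 10.53 to 18.12 with the control knock-down and were 5.63, 21.58 and 19.64 with the HIF-1α knock-down, so that the lowest and the highest library both belonged to the HIF-1α-KD group. With so few reads its log2 fold change of -0.13 had a 95% interval of -1.51 to 1.25 (limma adjusted p = 0.948), and it was 0.44 without HIF-1α-KD replicate 1 (limma adjusted p = 0.773).

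Most of the 8 genes varied more among HIF-1α-KD than among Mock libraries (6 of 8 genes, against 45.2% of all genes tested). The median SD of the 8 tested genes on the log2 scale was 0.25 in Mock and 0.79 in HIF-1α-KD cells, whereas over all genes tested it was 0.25 and 0.21. The SDs of Cd274, Lgals9, Nt5e, Entpd1 and Adora2b in HIF-1α-KD cells were larger than those of at least 90.1% of the genes tested, and those of Pvr and Cd47 larger than those of 6.62% and 17.8%. In 4 of the 8 genes (Cd274, Lgals9, Nt5e and Adora2b) HIF-1α-KD replicate 1 was the lowest and replicate 2 the highest of the 3 libraries, an order found in 16.9% of all genes tested. Hif1a itself had this order, with 697.3, 3142 and 1928 normalized counts, and its part in the spread was not tested. Other genes were set beside this order after their values were seen. The interferon-inducible class II genes Cd74, H2-Aa and H2-Ab1, which are also leukocyte markers, summed to 22.3, 15.5 and 137 FPKM across Mock replicates, compared with 52.2, 480 and 240 FPKM across HIF-1α-KD replicates. Their highest level was in HIF-1α-KD replicate 2, as for Cd274 and Nt5e, whereas the macrophage complement genes peaked in HIF-1α-KD replicate 3, as for Entpd1. Whether these transcripts and the checkpoint genes shared a source was not tested.

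**Figure D4:**
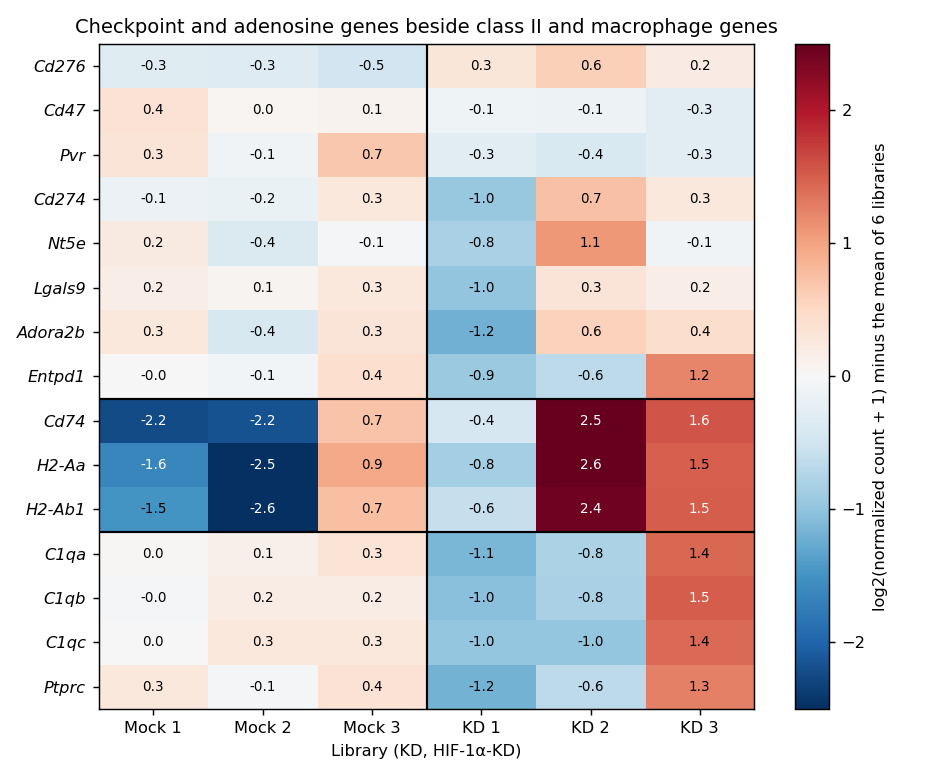
Log2 of the normalized count plus 1 in each library minus the mean of the 6 libraries, for the 8 tested genes (top), class II genes (middle) and macrophage genes with Ptprc (bottom). Cd276, Cd47 and Pvr show no overlap of the groups (limma adjusted p = 0.196, 0.384 and 0.294), Cd274 and Nt5e are highest in HIF-1α-KD replicate 2 like the class II genes, and Entpd1 is highest in HIF-1α-KD replicate 3 like C1qa, C1qb, C1qc and Ptprc.

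Other genes of these pathways were examined by lists. Of 27 other B7, nectin, TNF-superfamily and galectin ligands and related enzymes, 19 were tested, 0 passed an adjusted p-value under 0.05 in limma, and 1 was higher and 2 were lower at an unadjusted p-value under 0.05 (15.8%, against 12.7% of all genes tested). At an adjusted p-value under 0.05, edgeR called 0 of these ligands and DESeq2 1 higher and 1 lower of 19, where DESeq2 called 0.799% of all genes higher and 1.56% lower. The higher gene in limma was Cd200, whose product binds an inhibitory receptor on myeloid cells. It was present at 36.93, 28.71 and 65.23 normalized counts across Mock replicates and at 139.1, 154.7 and 82.01 across HIF-1α-KD replicates (log2 fold change 1.53, standard error 0.40, limma adjusted p = 0.228). Tnfsf9, the 4-1BB ligand that costimulates T cells, lay between 439.5 and 490.4 normalized counts in Mock and between 269.1 and 314.2 in HIF-1α-KD libraries, without overlap (log2 fold change -0.65, standard error 0.17, limma adjusted p = 0.238). Lgals3, a galectin, stood at 12860, 8097 and 19620 normalized counts in Mock cells, with 8942, 5890 and 5346 in HIF-1α-KD cells, with overlap of the groups (log2 fold change -0.95, standard error 0.32, limma adjusted p = 0.303).

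Of 32 other genes of the adenosine and nucleotide pathway, 22 were tested, 0 passed an adjusted p-value under 0.05 in limma, and 3 were higher and 0 lower at an unadjusted p-value under 0.05 (13.6%). At an adjusted p-value under 0.05, edgeR called 0 of them and DESeq2 2 higher of 22, against 0.799% of all genes. The 3 genes act outside the step from ATP to adenosine that CD39 and CD73 carry out. Enpp2, which belongs to the nucleotide pyrophosphatase family but encodes autotaxin, the enzyme that makes lysophosphatidic acid, gave 291.8, 583.8 and 1045 normalized counts in the Mock libraries, compared with 3818, 3528 and 1827 after knock-down of HIF-1α. Its fold change of 5.16 was the largest of the 3 (log2 fold change 2.37, standard error 0.45, limma adjusted p = 0.104). Cd38, an ectoenzyme that consumes NAD, reached 307.8, 255.5 and 537.5 normalized counts with the control knock-down and 979.7, 702.7 and 604.1 with the HIF-1α knock-down (log2 fold change 1.10, standard error 0.30, limma adjusted p = 0.245). P2rx7, the ATP-gated channel, differed by 0.74 on the log2 scale (standard error 0.31, limma adjusted p = 0.384), with its highest value of 477 in HIF-1α-KD replicate 1. The adenosine receptors Adora1, Adora2a and Adora3 had at most 3 reads in any library, so Adora2b was the adenosine receptor with the most reads. Ada and Adk, which remove adenosine, had log2 fold changes of 0.27 and -0.24 (limma adjusted p = 0.573 and 0.602).

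All 15 genes of a list of regulators of PD-L1, the interferon-γ receptor chain among them, were tested, and 12 had a log2 fold change above 0, as did 6332 of the 12014 genes tested, with a median of 0.24. At an unadjusted p-value under 0.05, 2 were higher and 0 were lower (13.3%), and 0 passed the adjusted threshold in limma, edgeR or DESeq2. The 2 higher genes became 0 with TMM scaling, without Mock replicate 1 and without HIF-1α-KD replicate 2, and 1 with edgeR and with the replicate block, and 1 gene was lower without Mock replicate 3, HIF-1α-KD replicate 2 or HIF-1α-KD replicate 3. Stat3 (log2 fold change 0.49, standard error 0.21, limma adjusted p = 0.385), Ifngr2 (log2 fold change 0.34, standard error 0.15, limma adjusted p = 0.392) and Irf2 (log2 fold change 0.28, standard error 0.13, limma adjusted p = 0.44) had the smallest p-values. Stat3 encodes a transcription factor of cytokine signaling, Ifngr2 a chain of the interferon-γ receptor and Irf2 an interferon regulatory factor.

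The genes most like Cd276, Pvr and Cd47 were sought by the root mean square difference of their centred log2 values over the 6 libraries. Nearest to Cd276 were Gm14124, Zfp109 and Il1r1, the receptor of interleukin-1, with differences of 0.087, 0.10 and 0.12 on the log2 scale. Among the nearest to Pvr were P4ha1, a collagen prolyl hydroxylase subunit, and Rnf113a1, with differences of 0.092 and 0.11. Nearest to Cd47 were Dnajc22, Prps2 and 1600014C10Rik, with differences of 0.031, 0.032 and 0.036.

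HIF binds DNA at a short core motif, written here as ACGTG or GCGTG and searched on both strands in the 250 bases before each start site of the RefSeq annotation (GRCm38.p6). Of the 10 genes, 9 had such a window and Pvr had none. Among the 9, 5 (55.6%) held a core motif in at least 1 window, against 41.5% of the 27025 genes with a window. They were Cd47, Cd274, Nt5e, Entpd1 and Adora2b. Cd276, Cd80, Lgals9 and Pdcd1lg2 held none in their windows. The windows of Cd276 and Nt5e begin inside an exon of the GENCODE annotation. A match is a description of these letters only. The sequences of Cd47, the gene with the most matches and with lower counts in all HIF-1α-KD libraries, and of Cd274, whose counts overlapped, are given for comparison, 5′ to 3′ on the plus strand up to the first annotated exon or start site, with the core motifs in capitals. That of Cd47, which lies within the annotated span of the gene, is chr16:49855404-49855632, and that of Cd274 is chr19:29367188-29367437.
Cd47: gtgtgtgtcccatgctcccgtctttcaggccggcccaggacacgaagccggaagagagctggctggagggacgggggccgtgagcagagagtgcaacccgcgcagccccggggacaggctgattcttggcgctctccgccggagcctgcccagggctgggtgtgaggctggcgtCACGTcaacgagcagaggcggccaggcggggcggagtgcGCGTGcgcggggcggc
Cd274: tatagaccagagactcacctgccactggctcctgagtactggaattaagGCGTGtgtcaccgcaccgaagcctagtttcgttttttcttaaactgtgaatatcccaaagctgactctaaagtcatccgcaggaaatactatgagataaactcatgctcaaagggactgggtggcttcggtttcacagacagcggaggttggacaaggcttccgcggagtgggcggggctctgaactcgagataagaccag
The window of Cd47 held 3 core motifs, beginning 76, 37 and 18 bases before the start site, of which the last lies in an exon and is not shown. The motif of Cd274 begins 201 bases before its start site. Cd47 thus carried matches and had lower counts, and Cd274, Nt5e, Entpd1 and Adora2b carried a match and had groups that overlapped. Without a match in their windows, Cd276 had higher counts and Lgals9 had groups that overlapped. Pvr, the other gene with lower counts, had no window to search.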

How the data were processed

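Trimmed reads were aligned by the authors with STAR and counted per gene with featureCounts. The paper's methods name GRCh38, the labels' processing notes GRCm38, and the identifiers are those of mouse genes. The libraries were made with a stranded kit, and whether the counting used strand is not given in the sources used here. The deposited normalized counts are a signal, each gene's reads divided by 1 factor per library and printed with 4 significant digits. The deposited FPKM values are per kilobase of the deposited gene width. The authors' log2 ratio, p-value and false discovery rate were not used, nor was the deposited GC fraction. For differential expression the paper's methods name DESeq2, whereas the labels' processing notes name edgeR. Groups were taken from the sample titles.

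Reads were recovered by dividing each normalized count by the value of 1 read in its library, and 100% of values up to 300 reads were whole within 0.1 reads. filterByExpr of edgeR 4.0.16 (minimum count of 10) kept 12014 genes. The planned main test for normalized counts was used, limma 3.58.1 (trended variance) on log2(normalized count + 1), a scale that understates changes of low genes. It was two-sided and unpaired, with Benjamini-Hochberg adjustment over all genes tested. Tests were tested on simulated data. The genes named in the text are the 10 genes and Hif1a, of each pathway list those past an adjusted p-value of 0.05 or otherwise the 3 with the smallest p, the 3 nearest genes of the 3 genes with the smallest p, and markers, apart from a few that are not reported here. Further genes of the lists (Ada, Adk, Adora1, Adora2a, Adora3, Sirpa, Tigit, Havcr2, Lag3, Vsir, Cd86, Ido1, Pdgfra, Pdgfrb, Cspg4, Rgs5, Col1a2, Acta2, Fap, Lum, Cdh5 and the class II and C1q genes) were named after their values were seen. All genes and lists were chosen with earlier results of these data known. Positions are from GENCODE M21 (GRCm38) by Ensembl identifier. Annotated genes that overlap Cd274, Pdcd1lg2, Cd276, Pvr, Entpd1 or Hif1a were not analysed here, and without strand their reads could not be told apart from those of these genes. Alternatives were the tests of edgeR and DESeq2 1.42.0 on recovered reads, other scalings, filters (none, minimum count of 50) and pseudocounts (0.1 and 10), a replicate block and each library left out. R 4.3.3, Python 3.11.15 and matplotlib 3.10.9 were used. Intervals and read limits cover the spread of these libraries and counting error only.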

Additional observations from a re-analysis of the deposited data

How the results depend on the processing

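At an adjusted p-value under 0.05, 0 of the 8 tested genes were called under each alternative except the Wald test of DESeq2, which called 1 (Cd276, higher) and which over all genes called 283, against 47 in limma. The 2 lower genes at an unadjusted p-value under 0.05 became 1 with library size scaling, with the replicate block, and without Mock replicate 1, Mock replicate 3, HIF-1α-KD replicate 1 or HIF-1α-KD replicate 2 (between 1 and 2 with each library left out). Without HIF-1α-KD replicate 3 the 2 genes were Pvr and Entpd1 in place of Pvr and Cd47 (unadjusted p in limma = 0.141 for Cd47 and 0.0399 for Entpd1). Without the filter on low counts the higher genes at that threshold became 2, because Pdcd1lg2 entered with at most 3 reads per library. Cd276, Pvr, Cd47 and Hif1a kept their direction under all 15 alternatives. The direction of Entpd1 was reversed with edgeR (0.069) and DESeq2 (0.081), and that of Adora2b with DESeq2 (0.0038). With each library left out in turn, log2 fold changes ranged from -0.33 to 0.51 for Cd274, from -0.39 to 0.56 for Nt5e, from -0.91 to 0.18 for Entpd1, from -0.44 to 0.44 for Adora2b and from -0.58 to 0.075 for Lgals9. The direction was reversed without HIF-1α-KD replicate 2 for Cd274, Nt5e and Entpd1, without HIF-1α-KD replicate 1 for Lgals9, Entpd1 and Adora2b, without Mock replicate 1 or 2 or HIF-1α-KD replicate 3 for Cd274, without Mock replicate 2 for Nt5e, and without Mock replicate 3 for Adora2b. At an unadjusted p-value under 0.05, the other ligands had from 1 to 3 higher and from 1 to 3 lower genes over the alternatives, the adenosine list from 2 to 4 higher and from 0 to 2 lower, and the regulators of PD-L1 from 0 to 3 higher and from 0 to 1 lower. With a minimum count of 50, Entpd1 and Adora2b were not tested. The replicate numbers were not taken as pairs, because deviations from the group means correlated at -0.14, -0.12 and 0.02 between libraries of the same number. With the replicate block the calls at an adjusted p-value under 0.05 over all genes went from 1 higher and 46 lower to 0 and 0, and the limma adjusted p of Cd276 was 0.294. These calls over all genes also went to 0 and 0 without Mock replicate 3 or HIF-1α-KD replicate 2, to 0 higher and 2 lower without Mock replicate 1, to 1 higher and 10 lower without Mock replicate 2, to 0 higher and 8 lower without HIF-1α-KD replicate 3, and to 6 higher and 32 lower without HIF-1α-KD replicate 1. Where a left-out library or a scaling changed a value, the cause was not tested. Depth limits Adora2b, Cd80 and Pdcd1lg2, and the spread of 3 libraries limits the others.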

Other observations

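Of 13 receptors of these and related ligands, Tigit had the highest level in any library after Sirpa, 1.03 FPKM in Mock replicate 3. Of these 13 checkpoint and phagocytosis receptors, 4 passed the filter on low counts (Tigit, Havcr2, Lag3 and Sirpa). Between the groups, 0 of these 4 had an unadjusted p-value under 0.05 in limma, against 12.7% of all genes tested. Sirpa, the macrophage receptor of CD47, was far above the other receptors, at 3.93 ± 0.82 FPKM in Mock and 6.54 ± 7.16 FPKM in HIF-1α-KD libraries (SD, n = 3). It was present at 151.4, 217.2 and 196.9 normalized counts across Mock replicates and at 88.47, 136.7 and 673.4 across HIF-1α-KD replicates, and was thus highest in HIF-1α-KD replicate 3 together with Entpd1, Ptprc and the C1q genes. The ligands Vsir and Cd86 had their highest value in the same library, 238 and 62.38 normalized counts, against at most 114.5 and 28.31 in the other libraries. Ido1, the interferon-inducible enzyme that degrades tryptophan, was highest in HIF-1α-KD replicate 2 with 199 normalized counts, as were Cd274 and Nt5e, and lay between 21.05 and 109.9 in the other libraries. These genes were chosen after their values were seen.

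Of the leukocyte markers, 20 of 28 were tested, and 2 of them were higher and 0 lower in limma (unadjusted p-value under 0.05). This was 10% of them, against 12.7% of all genes tested. Likewise, 4 of 10 endothelial markers were tested. Of these, Cdh5 alone (25%) was past this threshold (lower, log2 fold change -0.84, limma adjusted p = 0.294). None of the 3 tested epithelial markers was past that threshold.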
